A study of Mus musculus with 2 samples.

Results

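The transcripts of 10 genes for enzymes that interconvert steroids were examined in gonad-mesonephros complexes of mouse embryos. These genes are Akr1c14, Akr1c18, Srd5a1, Hsd17b1, Hsd17b3, Hsd17b4, Hsd17b7, Hsd17b12, Hsd11b1 and Hsd11b2. The group was selected on the measured values of Akr1c14, which gave a much lower signal in the mutant, and its other genes were added as enzymes of the same chemistry. Every probe set annotated with exactly 1 gene symbol equal to one of these names was used. Of the 10 genes, 9 had at least 1 such probe set and together they had 14, among 18193 genes represented on the array. Srd5a1, a steroid 5-alpha-reductase, had no probe set listed under its symbol, so its transcript was not measured and only its promoter was searched.

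The arrays held RNA of XX Gata4ki/ki embryos (the mutant) and of XX wild-type embryos, all dissected on embryonic day E12.5. GATA4 is a transcription factor of the somatic gonad, and the knock-in allele Gata4ki impairs its contact with FOG cofactor proteins. The comparison addresses the genes of the early ovary that need GATA4 and FOG together. The C57Bl/6 strain was given for the mutant only. Each group was 1 array with pooled RNA of 6 pairs of complexes, each complex being the gonad with the mesonephros, the embryonic kidney next to it. No value therefore has a replicate error, no test between groups was possible, and every difference describes 1 pair of arrays.

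Steroid hormones are made from cholesterol by cytochrome P450 enzymes and 3-beta-hydroxysteroid dehydrogenase, and are then switched between strong and weak forms by the enzymes described here. Some are aldo-keto reductases (AKR), others are short-chain dehydrogenases of the 17-beta (HSD17B) and 11-beta (HSD11B) families, which oxidise or reduce a hydroxyl or keto group of the steroid. Several HSD17B enzymes also act on other lipids, in peroxisomes, in fatty acid elongation or in cholesterol synthesis. In mice, the fetal ovary makes little steroid hormone compared with the fetal testis.

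The values are MAS5 signals on a linear scale, which compare arrays for 1 probe set but do not compare different probe sets. Signals below 24.0, the 50th percentile of the pooled values of both arrays, were raised to that floor before log2 ratios (mutant minus wild type) were taken. Where 1 array did not exceed the floor, the ratio is a bound. Genes exceeding it on 1 array or both count as measured, each through its brightest probe set. Of the 14 probe sets, 8 were above the floor on both arrays, 2 on 1 array and 4 on neither. In genes, 6 were measured, 3 did not exceed the floor on either array (Hsd17b1, Hsd17b3 and Hsd11b1), and 1 had no probe set.

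Among the 6 measured genes, Akr1c14 was 4.83-fold lower in the mutant and Akr1c18 at least 2.50-fold higher there, and the other 4 genes had log2 ratios between -0.34 and 0.16. Thus 1 gene was at least 2-fold lower, where 0.537% of the 12300 measured genes on the arrays were, and 1 was at least 2-fold higher, where 0.846% were. The group was chosen for Akr1c14 on this same contrast, and Akr1c18 was measured only through the mutant array, so nothing is read from these counts. The median log2 ratio was -0.01 over the 6 measured genes and 0.01 over all measured genes.

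**Figure D1:**
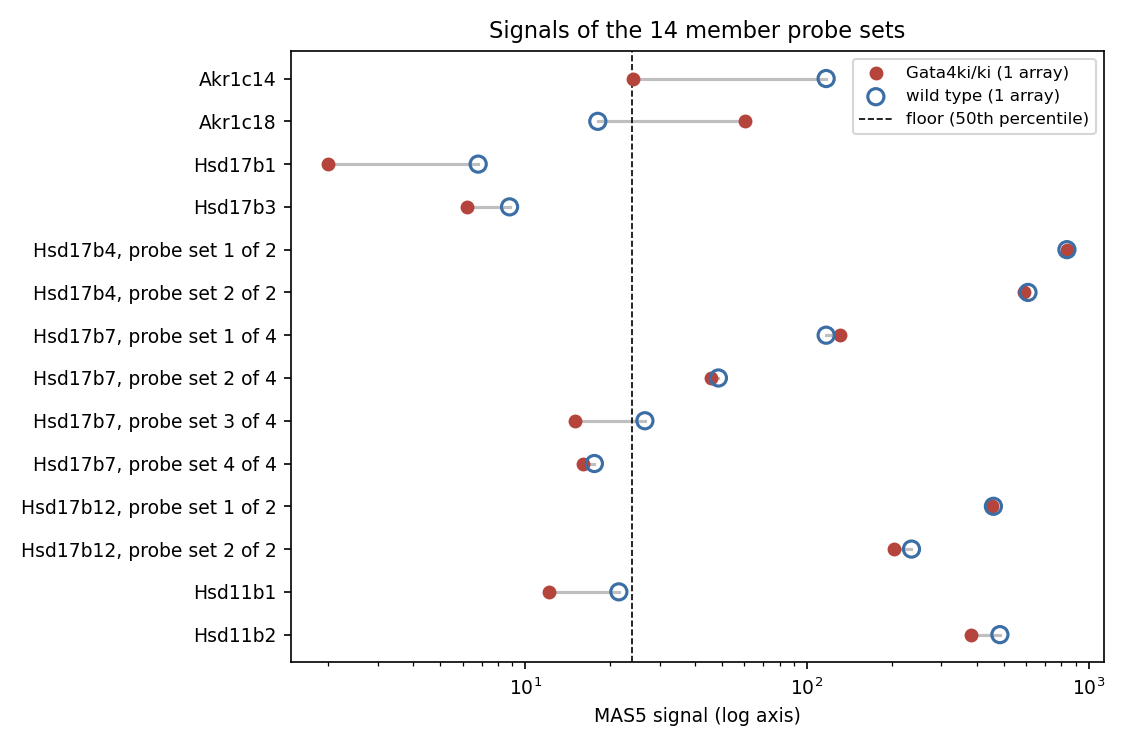
MAS5 signal (log axis) of each probe set of the 9 genes on the Gata4ki/ki array (filled) and the wild-type array (open), 1 array each, with the floor of 24.0 as a dashed line. Among probe sets with a signal above the floor, the arrays are 2-fold or more apart for Akr1c14 and Akr1c18 only, in opposite directions, while the widest gap below the floor is that of Hsd17b1.

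The aldo-keto reductases gave both of the wide differences. Akr1c14 encodes the mouse 3-alpha-hydroxysteroid dehydrogenase, which reduces dihydrotestosterone and dihydroprogesterone at carbon 3. Its only probe set, 1418979_at, gave a signal of 24.2 in the mutant and 117 in wild type, a log2 ratio of -2.27. The wild-type signal lay at percentile 71.5 of its array, the mutant signal at percentile 50.1. The mutant signal was 0.56% above the floor, so a slightly higher floor turns the ratio into a bound.

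Akr1c18 encodes the 20-alpha-hydroxysteroid dehydrogenase, which turns progesterone into a weak metabolite and is known from the mouse corpus luteum at the end of pregnancy. Its only probe set, 1419136_at, gave 60.2 in the mutant and 18.1 in wild type. With wild type under the floor, the log2 ratio was a bound of 1.32, and the deposited values without a floor were 3.32-fold apart. With the floor at the 60th percentile the bound was 0.31, and Akr1c18 no longer reached 2-fold.

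The bases just before the RefSeq start sites of both genes are shown because these were the 2 genes at least 2-fold apart and the mutant allele alters a GATA factor. Promoter windows from 250 bases before to 50 after a start were searched on both strands for GATAA, a core of GATA factor sites, and for AAGGTCA, a site of the steroidogenic factor NR5A1; no match of one overlapped a match of the other. The sequences are from RefSeq, build GRCm38.p6, 150 bases each, written 5′ to 3′ on the gene's strand, with motif matches in capitals. The Akr1c14 bases lie at chr13:4059441-4059590 on the + strand, before a start inside the RefSeq span of the gene, and those of Akr1c18 at chr13:4150647-4150796 on the - strand.
Akr1c14: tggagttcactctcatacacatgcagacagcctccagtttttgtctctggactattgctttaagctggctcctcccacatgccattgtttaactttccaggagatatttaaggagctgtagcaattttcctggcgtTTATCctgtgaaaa
Akr1c18: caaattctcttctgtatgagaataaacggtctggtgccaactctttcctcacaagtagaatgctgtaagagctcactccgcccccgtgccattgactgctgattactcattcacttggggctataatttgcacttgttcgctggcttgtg

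The Akr1c14 window held 1 GATAA match, on the reverse strand (TTATC as printed), from 14 to 10 bases before the start. The Akr1c18 window held neither motif. Of all 32851 promoter windows 25.4% held GATAA and 4.72% held AAGGTCA. Windows were found for 7 of the 10 genes, of which 2 held GATAA, Akr1c14 and Hsd17b3, and 0 held AAGGTCA. A match is a run of letters and does not show that a factor binds there.

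Akr1c14 and Akr1c18 are neighbours in a cluster of related reductase genes on chromosome 13, and the genes beyond them gave smaller differences where they were measured. In RefSeq order the cluster runs Akr1c14, Akr1c18, Akr1c13, Akr1c19, Akr1c12, Akr1c6, Akr1c20, Akr1c21 and Akr1e1. Akr1c13 gave 72.7 in the mutant and 69.6 in wild type, a log2 ratio of 0.06. Akr1c19 gave 41.1 in the mutant and 60.2 in wild type, a ratio of -0.55. Akr1e1 gave 403 in the mutant and 406 in wild type. Akr1c12, Akr1c6, Akr1c20 and Akr1c21 stayed under the floor on both arrays. Genes of this cluster are related in sequence, and whether a probe set reads its neighbours' transcripts was not tested. The Akr1c14 and Akr1c18 probe sets carry no suffix for shared probes.

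**Figure D2:**
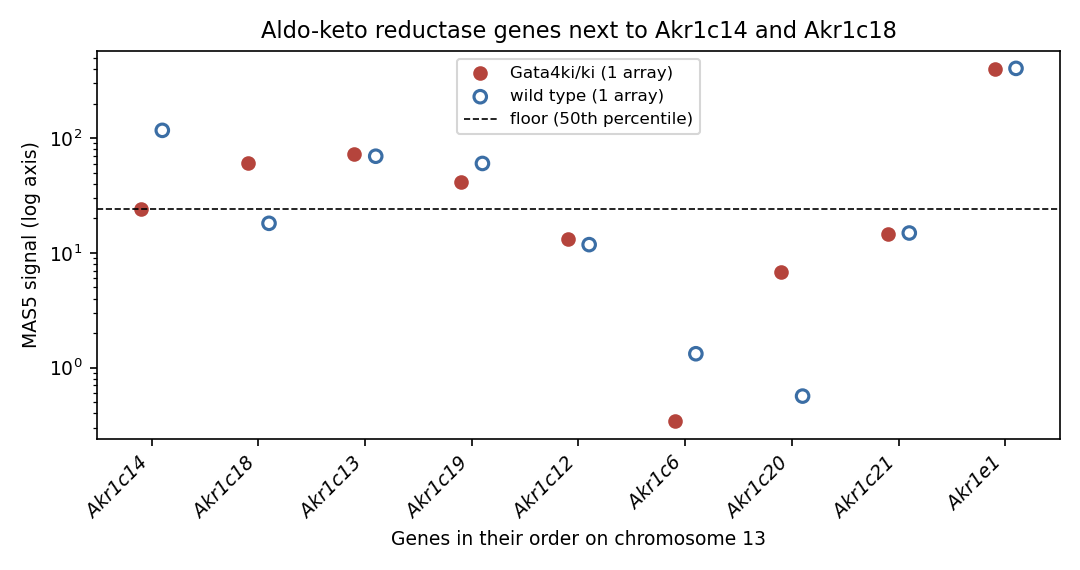
MAS5 signal (log axis) of the aldo-keto reductase genes in their order on chromosome 13, Gata4ki/ki filled and wild type open, 1 array each and 1 probe set a gene, with the floor of 24.0 dashed. Among genes with a signal above the floor the arrays differ most for the first pair of genes, Akr1c14 (24.2 in the mutant, 117 in wild type) and Akr1c18 (60.2 in the mutant, 18.1 in wild type), while Akr1c13 and Akr1e1 nearly coincide.

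The wider aldo-keto reductase family held no other gene 2-fold apart. Of 15 further AKR genes listed, 13 were on the array and 8 were measured, with 0 of them 2-fold apart either way, and the other 5 stayed under the floor. Their median log2 ratio was 0.05. The largest absolute ratios were those of Akr1b8, with 904 in the mutant and 527 in wild type (0.78), of Akr1b10, with 160 in the mutant and 259 in wild type (-0.70), and of Akr1c19. The Akr1b8 ratio exceeded 0.57, the 99th percentile of the absolute ratio over probe sets with a geometric mean signal above 400. A second probe set of Akr1b10 gave 26.8 in the mutant and 27.1 in wild type.

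Hsd17b1 and Hsd17b3, which encode 17-beta-hydroxysteroid dehydrogenases of sex steroid activation, were dim on both arrays. Hsd17b1 encodes the enzyme that makes oestradiol from oestrone in granulosa cells. It gave 2.0 in the mutant, at percentile 14.3 of that array, and 6.81 in wild type, at percentile 26.7. Hsd17b3 encodes the enzyme that makes testosterone from androstenedione, in the mouse fetal testis in Sertoli cells. It gave 6.23 in the mutant and 8.80 in wild type. Both lay under the floor on both arrays, so no ratio is given for either, and a low signal does not show that the transcripts were absent.

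Hsd17b4 and Hsd17b12, which encode HSD17B enzymes with other lipid substrates, were bright and close between the arrays. Hsd17b4 encodes a peroxisomal enzyme of fatty acid beta oxidation that also oxidises oestradiol. Its brighter probe set gave 838 in the mutant and 837 in wild type, a log2 ratio of 0.00, and the other gave 589 in the mutant and 609 in wild type, a ratio of -0.05. Hsd17b12 encodes the ketoacyl reductase of fatty acid elongation. Its brighter probe set gave 452 in the mutant and 459 in wild type, a ratio of -0.02. The dimmer one gave 204 in the mutant and 235 in wild type, a ratio of -0.20. All 4 of these probe sets lay within 1.5-fold.

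Hsd17b7, which encodes the ketosteroid reductase of cholesterol synthesis and also makes oestradiol, was read by 4 probe sets that did not all point the same way. The brightest, 1457248_x_at, gave 131 in the mutant and 117 in wild type, a log2 ratio of 0.16. The next gave 45.5 in the mutant and 48.5 in wild type, a ratio of -0.09. The third gave 15.0 in the mutant and 26.6 in wild type, a bound of -0.15 at this floor, and the fourth gave 16.1 in the mutant and 17.6 in wild type, both under the floor. The brightest carries a suffix for probes shared between transcripts, and it alone was higher in the mutant.

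The 11-beta-hydroxysteroid dehydrogenases set glucocorticoid activity in opposite directions, Hsd11b2 by inactivating corticosterone and Hsd11b1 by regenerating it. Hsd11b2 gave 383 in the mutant and 484 in wild type, a log2 ratio of -0.34. Probe sets with a geometric mean signal above 400 had a robust SD of the log2 ratio of 0.12 and a 95th percentile of its absolute value of 0.33, so the Hsd11b2 difference was at the edge of the spread at its brightness. That spread is over probe sets of 1 pair of arrays and not over embryos. Hsd11b1 gave 12.1 in the mutant and 21.5 in wild type, under the floor on both arrays.

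As deposited, 11 of the 14 probe sets had the lower signal in the mutant, where 50.8% of all probe sets on the array did. The 3 exceptions were those of Akr1c18, the brightest of Hsd17b7 and the brightest of Hsd17b4. Several of the 11 differ by a few percent or lie under the floor, and probe sets of 1 gene read the same RNA, so the count is a description only.

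**Figure D3:**
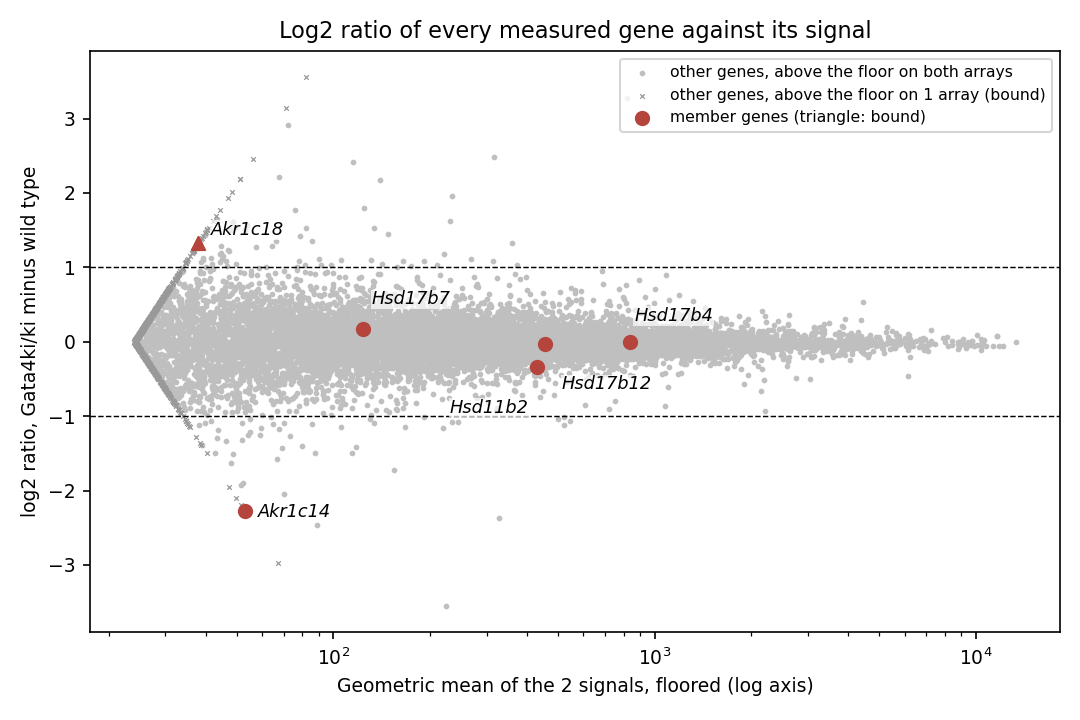
Log2 ratio (Gata4ki/ki minus wild type) of every measured gene against the geometric mean of its signals after the floor (log axis), 1 point a gene from 1 array a group, with dashed lines at 2-fold. Akr1c14 (-2.27) and Akr1c18 (a bound of 1.32, triangle) lie outside the lines, and Hsd17b4, Hsd17b7, Hsd17b12 and Hsd11b2 lie inside them.

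Among the 11462 genes above the floor on both arrays, 3 had a lower ratio than Akr1c14, and its place is a description since it was chosen for being low. The 5 named genes with the ratio closest to it, by the absolute difference of log2 ratios over 2 arrays, were Tcl1b3, Gng13, Foxl2, Plxdc1 and Cfap161. Tcl1b3, of the Tcl1 family, gave 144 in the mutant and 746 in wild type, a log2 ratio of -2.37. Gng13, a G protein gamma subunit, gave 37.9 in the mutant and 209 in wild type, -2.46. Foxl2, the forkhead factor of granulosa cells, gave 34.5 in the mutant and 142 in wild type, -2.05. Plxdc1 and Cfap161 had ratios of -1.93 and -1.90. The geometric mean of the Akr1c14 signals lay under 100, where probe sets had a robust SD of the log2 ratio of 0.37 and a 99th percentile of its absolute value of 1.18.

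Several genes upstream of the interconverting step gave higher signals in the mutant, some of them as bounds only. Of 12 listed genes of steroid synthesis, 8 were on the array and measured. In the mutant 3 were higher by 2-fold or more and 0 were lower by as much, beside 0.846% and 0.537% of all measured genes. The median log2 ratio was 0.38, beside 0.01 over all measured genes. On their brightest probe sets, Cyp17a1, Star and Cyp11a1 were above the floor on the mutant array only, and their bounds enter that median. Nothing is therefore read from the count or the median. Cyp17a1, which makes androgen precursors, gave 212 in the mutant and 6.49 in wild type, at least 8.81-fold higher. Hsd3b1, the 3-beta-hydroxysteroid dehydrogenase, gave 297 in the mutant and 66.1 in wild type, 4.49-fold higher. Star, the mitochondrial cholesterol carrier, gave 91.7 in the mutant and 19.1 in wild type on its brightest probe set, at least 3.82-fold higher, but its other probe sets had log2 ratios of at least 0.91 and of 0.17. The other 5 genes of this list had ratios between -0.25 and a bound of 0.55.

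Other steroid dehydrogenases and reductases had no brightest probe set 2-fold apart. Of 22 listed, 19 were on the array and 9 measured, with a median of 0.03. Hsd17b11, a dehydrogenase of lipid droplets, gave 1704 in the mutant and 2697 in wild type, a log2 ratio of -0.66. Its size exceeded 0.57, the 99th percentile of the absolute ratio over probe sets with a geometric mean signal above 400. A dimmer probe set of Hsd17b11 read 72.7 in the mutant and 171 in wild type, 2.35-fold lower. Dhrs11 had a ratio of 0.30 and Hsd3b3 a bound of -0.24. Hsd17b2, Hsd17b6, Hsd17b13 and Hsd17b14 were among the 10 genes under the floor on both arrays. Srd5a3, a reductase related to Srd5a1, had a ratio of 0.03.

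The pathways in which the lipid-metabolising members work were close between the arrays. Of 11 measured genes of peroxisomal beta oxidation, where Hsd17b4 acts, 0 were 2-fold apart and the median was 0.00, with Acaa1b, Pex5 and Acaa1a at -0.62, -0.48 and 0.43. Of 11 measured genes of very long chain fatty acid elongation, the pathway of Hsd17b12, 0 were 2-fold apart and the median was -0.06. Elovl4, an elongase, had a ratio of 0.74 on its brighter probe set and a bound of -0.27 on the other, and Elovl2 and Hacd3 had -0.18 and -0.15. Of 11 measured genes of late cholesterol synthesis, the pathway of Hsd17b7, 0 were 2-fold apart and the median was 0.04. Lss had -0.33 on its brightest and 0.12 on another probe set, and Tm7sf2 and Msmo1 both had 0.31.

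Glucocorticoid and sex steroid receptor genes, which read the products of these enzymes, also had no brightest probe set 2-fold apart. Of 9 measured genes of glucocorticoid activation and response, 0 were 2-fold apart, with a median of 0.01. Fkbp5, a glucocorticoid-induced chaperone, gave 396 in the mutant and 535 in wild type, a ratio of -0.43, and a dimmer probe set had -0.68. In size, these ratios exceeded 0.33 and 0.55, the 95th percentiles of the absolute ratio over probe sets of their brightness. Klf9 had -0.20 on its brightest probe set, and -0.61 and -0.15 on dimmer ones above the floor. The size of -0.61 also exceeded 0.55, the 95th percentile at its brightness. Per1 had 0.18, and H6pd, which supplies the cofactor of Hsd11b1, had 0.07. Of 4 measured steroid receptor genes 0 were 2-fold apart. Esr1, oestrogen receptor alpha, gave 411 in the mutant and 323 in wild type, a ratio of 0.35, and a dimmer probe set had 0.69. Pgrmc2 had -0.13 and Pgr a bound of -0.10. Of 4 measured genes of steroid conjugation and breakdown 0 were 2-fold apart, with Cyp2s1, Sult1a1 and Cyp1b1 at -0.42, 0.22 and 0.09.

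**Figure D4:**
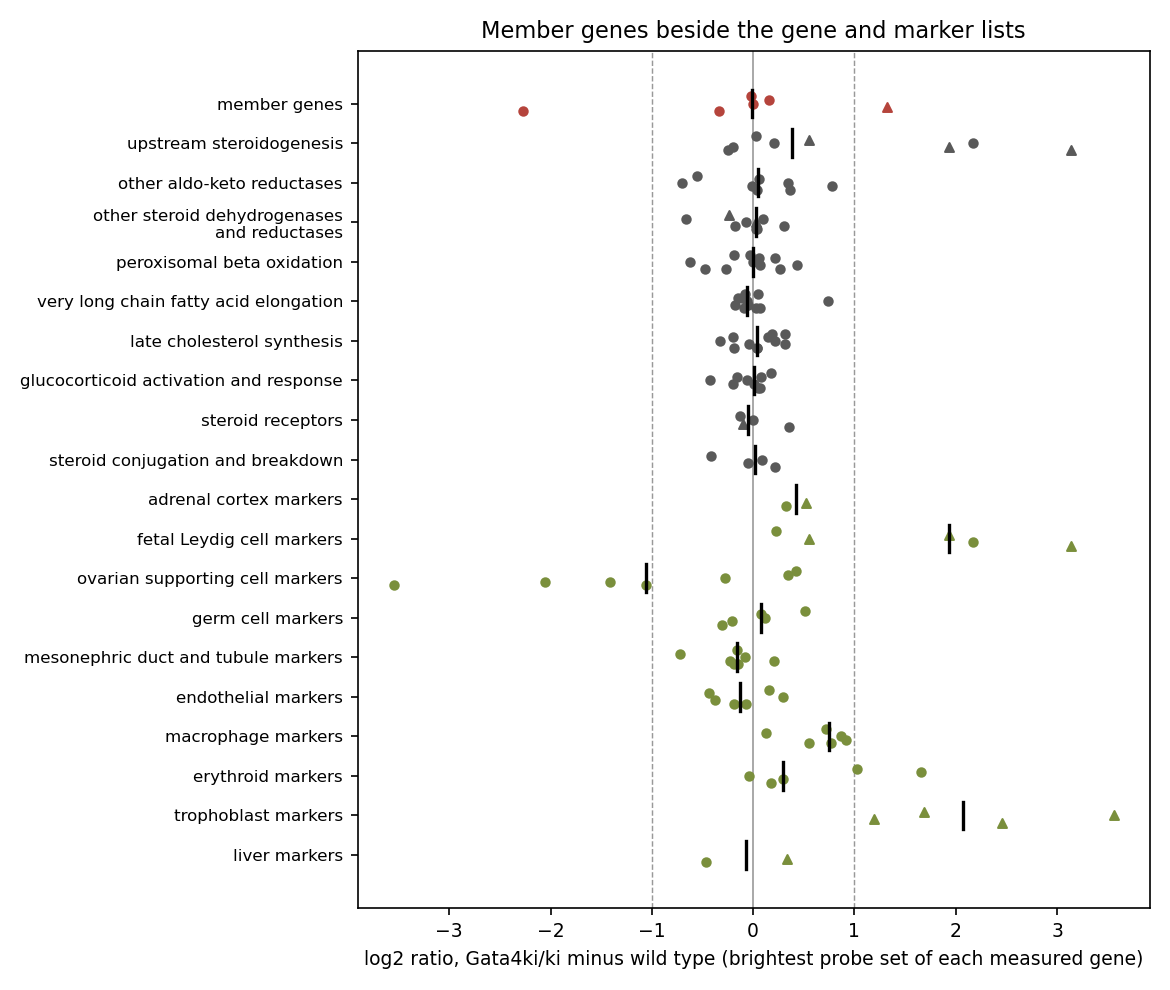
Log2 ratios (Gata4ki/ki minus wild type) of the measured genes of each list, 1 point a gene from its brightest probe set (triangles are bounds), with the list median as a black bar and dashed lines at 2-fold. The 10-gene group (red, 6 measured) has its median near 0 with 1 gene beyond each line. Upstream steroidogenesis (grey) has 3 genes beyond the right line. The marker lists (green) of ovarian supporting cells and trophoblast have medians of -1.06 and 2.07. The trophoblast median comes from bounds only, because its genes were above the floor on the mutant array alone.

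Markers described the tissue behind these values. Germ cell, mesonephric and ovarian supporting cell markers were measured in all cases where they were on the array, 5 of 5, 7 of 7 and 7 of 7, and fewer cells of a type cannot be told apart from less RNA per cell. Of the 7 ovarian supporting cell markers, 4 were at least 2-fold lower (Fst, Foxl2, Msx1 and Irx3) and 0 at least 2-fold higher, with a median log2 ratio of -1.06. Wnt4, Rspo1 and Bmp2 of that list had ratios of -0.28, 0.34 and 0.42. The summed signal of all 7 supporting cell markers was 1987 in the mutant and 3302 in wild type. Signals of different probe sets do not compare, so this sum is a description only. Its largest drop was that of Fst, follistatin, which gave 65.6 in the mutant and 770 in wild type. Mesonephric duct and tubule markers had a median of -0.16, with Calb1, Emx2 and Lhx1 at -0.72, -0.23 and 0.21. Germ cell markers had a median of 0.08, with Kit, Dazl and Ddx4 at 0.51, -0.31 and -0.21.

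Markers of other cell types differed from list to list. Of 7 listed fetal Leydig cell markers, 5 were on the array and measured, and Insl3 and Lhcgr had no probe set listed under their symbols alone. The 5 share Cyp17a1, Hsd3b1, Star and Cyp11a1 with the upstream list. Of them 3 were at least 2-fold higher and 0 lower by as much, beside 0.846% and 0.537% of all measured genes. Cyp17a1, Star and Cyp11a1 entered as bounds, being above the floor on the mutant array only on their brightest probe sets. Nothing is therefore read from this count. The summed signal of the 5 markers was 3448 in the mutant and 2513 in wild type. It is mostly that of Dlk1, which gave 2812 in the mutant and 2403 in wild type. Of 6 trophoblast markers on the array 4 were at least 2-fold higher, all as bounds, and their summed signal was 547 in the mutant and 5.95 in wild type. Each of their wild-type signals lay under the floor, so no ratio is taken from these sums and nothing is read from the count. Ctsj gave 283 in the mutant and 1.29 in wild type, and Prl2b1 and Ctsq had bounds of 2.46 and 1.69. Tpbpa and Psg17 stayed under the floor on both arrays. These markers were listed with earlier values of several of them known.

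None of the 6 macrophage markers was 2-fold apart, though all 6 had a ratio above 0, with a median of 0.75 and Ptprc, Fcer1g and Csf1r at 0.92, 0.87 and 0.77. Of 5 erythroid markers 2 were at least 2-fold higher, Klf1 by 3.15-fold and Alas2 by 2.04-fold. The Klf1 signal in wild type was 24.5, just above the floor of 24.0. The globin genes Hba-x, Hbb-bh1 and Hbb-y had ratios of 0.29, 0.18 and -0.04. Among adrenal cortex markers Cyp21a1, Cyp11b1 and Cyp11b2 stayed under the floor on both arrays. Mc2r gave 145 in the mutant and 116 in wild type, and Mrap had a bound of 0.52. Endothelial markers had a median of -0.13, with Tek, Cdh5 and Kdr at -0.44, -0.38 and 0.29. Of 5 liver markers on the array 2 were measured, Afp at -0.47 and Apoa2 at a bound of 0.33. The part of these cell types in the values of Akr1c14 and Akr1c18 was not tested.

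The arrays were alike in scale and RNA quality measures. The median signals were 24.0 in the mutant and 24.1 in wild type, and 93.3% of measured genes lay within 1.5-fold. For Actb, the 3′ probe set over the 5′ probe set gave 2.47 in the mutant and 2.16 in wild type, and for Gapdh 1.10 in the mutant and 0.901 in wild type.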

How the data were processed

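RNA of gonad-mesonephros complexes was measured on oligonucleotide arrays, 1 array for each group. The authors deposited linear signal intensities, 1 for each probe set and array, and the submitters' processing notes name MAS5. Its version and detection calls were not used here. With 2% of probe sets trimmed at each end, the mean was 150.0 for either array, the mark of a single scaling factor per array, which keeps the ratios between genes of that array. Signals are least precise when low, and the number of arrays limits the precision of every value.

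Of 45101 probe sets, 64 were controls and were left out of the gene comparisons. The platform annotation gave 1 gene symbol for 34958, several for 932 and none for 9211, and no probe set naming 1 of the 10 genes among several was found. Gene numbers looked up in the RefSeq table of GRCm38.p6 changed 0 symbols. Values were used with no further normalization. The floor, the log2 ratios and the counts are described with the results; bounds entered medians at their value. Genes at least 2-fold apart were counted, with no test. The robust SD is the scaled median absolute deviation of log2 ratios over probe sets above the floor on both arrays. The genes, lists, rule for named genes and 8 alternative settings were chosen with earlier results of these data known. From each of 9 gene lists and 10 marker lists, up to 3 measured genes with the largest absolute ratio were named, with every probe set of the 10 genes, the 5 genes closest in ratio to Akr1c14, and Cyp17a1, Hsd3b1 and Star; other genes were named after their values were seen. The calculation was tested on simulated data. Python 3.11.15, numpy 2.4.6, pandas 2.3.3 and matplotlib 3.10.9 were used.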

Additional observations from a re-analysis of the deposited data

How the results depend on the processing

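The count of genes at least 2-fold lower was 1 in 7 of 8 alternative settings and 2 with no filter on low values, where Hsd17b1 joined Akr1c14 at signals under the floor. The count at least 2-fold higher was 1 in 7 of 8 and 0 under the 60th percentile floor, where Akr1c18 had a bound of 0.31. The median log2 ratio ranged from -0.34, with no filter on low values, to -0.01. Akr1c14 was at least 2-fold lower in all 8 settings, at -1.72 on the log2 scale under a pseudocount of 16 and at a bound of -1.27 under the 60th percentile floor. Akr1c18 had 1.73 with the 40th percentile floor, and the third Hsd17b7 probe set -0.83. Of 58 values of single probe sets under alternatives, 51 moved by less than the robust SD at their brightness, 7 moved by more and 0 were counted as reversed. The brighter Hsd17b4 probe set went from 0.00 to -0.00 under quantile normalization, a change of sign within rounding. Over all genes, those at least 2-fold higher and lower numbered 210 and 136 with the 40th percentile floor, 41 and 33 with the 60th, and 1821 and 1683 with no filter. No paired analysis was possible because each group has 1 array. What limits these results is the single array for each group and the low signal of Akr1c14, Akr1c18 and the dim genes.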
